A study of Mus musculus with 2 samples.

Results

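This account follows 43 genes of DNA replication and of the G1/S step of the cell cycle, the point at which a cell commits to copying its genome. The genes were chosen by name, with earlier results of these arrays known, and a member was measured where a probe set carried its symbol and no other. In this way 42 of the 43 were found, of 18193 genes measured in all, through 90 probe sets. Chaf1a was not analysed here. Each gene was read from its probe set with the highest mean of the 2 signals, and its further probe sets served as a check. Because the list was drawn up with ratios of these arrays in view, every value below is a description.

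The RNA came from ATDC5, a mouse chondrogenic cell line. All cells were starved of serum and then received cycloheximide (CHX), which blocks protein synthesis, at 10 µg/ml for 30 min. PBS (the control, CHX+PBS) or recombinant human Nell-1 at 100 ng/ml (CHX+Nell-1) was then added for another 30 min. Each group is 1 Affymetrix array, so no ratio has an error between cultures, no test was possible and no p-value is given. The question was which transcripts respond to Nell-1, a secreted glycoprotein linked to bone and cartilage formation, without new protein being made.

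Replication starts at origins bound by the origin recognition complex, where Cdc6 and Cdt1 load the ring of Mcm2 to Mcm7. Cdc45 and the GINS complex join the ring to make the active helicase, and cyclin E with Cdk2 pushes the cell into this phase. Many of these genes are classical targets of E2F transcription factors, which are held in check by retinoblastoma family proteins until G1/S. Serum-starved cells usually express them at low levels, and cycling cells at high levels. Here 38 of the 42 measured members had a mean signal at or above the 75th percentile of all probe sets (431.6), as had 7144 of all 18193 genes. No array of serum-fed cells was available for comparison.

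The group lay slightly on the Nell-1 side as a whole. The median log2 ratio of CHX+Nell-1 over CHX+PBS was 0.19 over the 42 members, against -0.03 over the 11600 genes whose mean signal was at or above the median of all probe sets (64.3), where all 42 lay. Above 0 lay 37 of the 42, and 45.8% of those 11600 genes. At least 1.5-fold higher with Nell-1, the limit the submitters used, were Gins1, Pola1, Gmnn, Orc6 and Orc2. That is 5 of 42, or 11.9%, where the background was 4.56% of genes at or above the median signal and 13.1% of all genes. None of the members was at least 1.5-fold lower, where the background was 7.53% and 19.0%. At 1.2-fold, 14 members were higher and none lower, beside 18.5% and 23.7% of genes at or above the median signal. None of the 42 reached 2-fold.

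**Figure D1:**
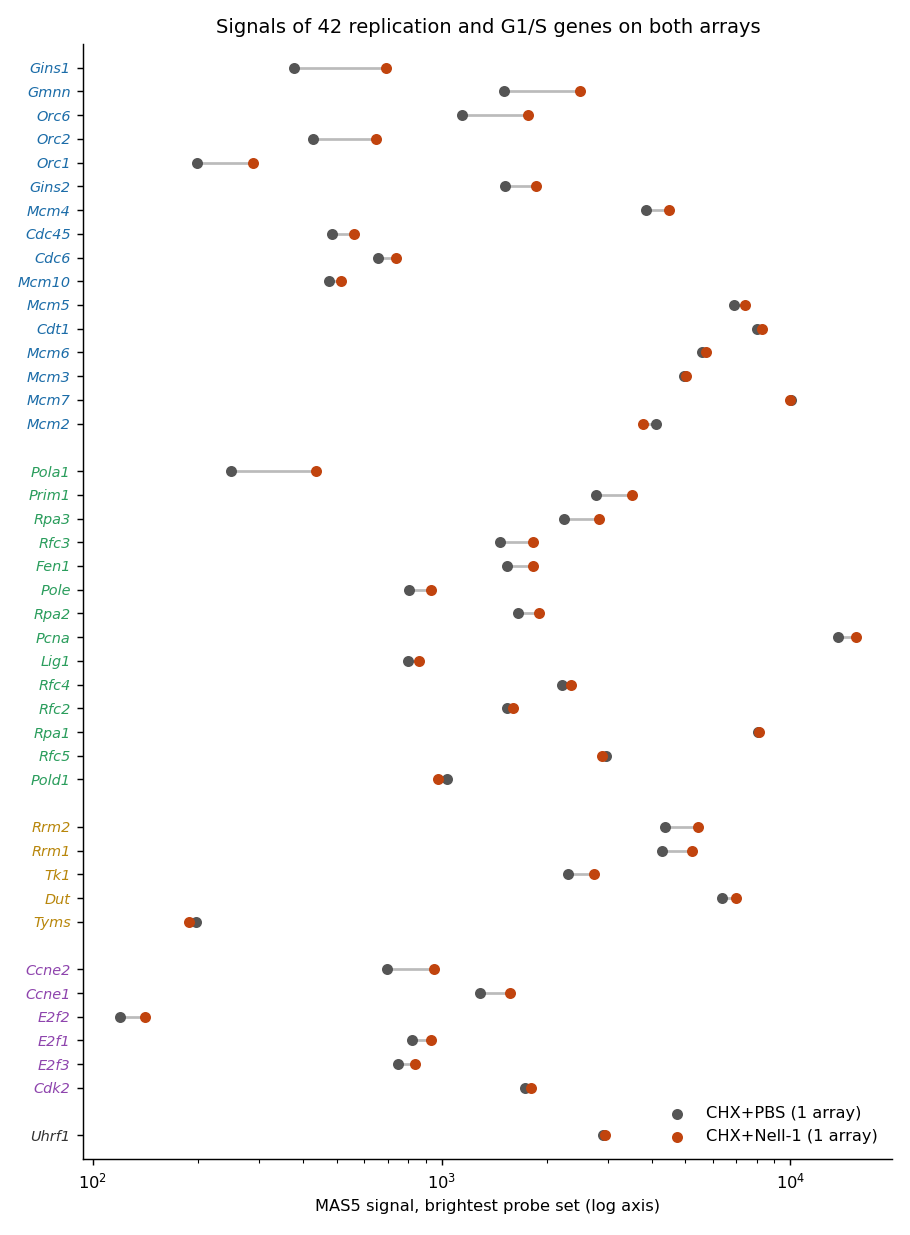
MAS5 signal of the brightest probe set of each of the 42 genes on the CHX+PBS array (grey) and the CHX+Nell-1 array (orange), on a log axis, grouped by role (label colour) and ordered by ratio within a role. The widest gaps are at Gins1 (377 and 695), Pola1 (250 and 436) and Gmnn (1514 and 2492), while the points of Mcm7 (10017 and 9975) nearly coincide.

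E2F-type letters occurred in the promoters of 15 of 36 members, and sequences are shown because the members were not chosen by their promoter letters. Many of them are classical E2F targets, however, so this share is not independent of the choice by name. RefSeq promoter windows (assembly GRCm38.p6, 250 bases before and 50 from a gene's start on) were held for 36 of the 43 members, in 44 windows. The search took TTT, then 2 bases that are each C or G, then CGC, that is TTTCCCGC, TTTCGCGC, TTTGCCGC and TTTGGCGC, on both strands, with overlapping matches counted. A match was found in 15 of the 44 member windows (34.1%), against 2.27% of all 32851 windows and 3.98% of the 12031 windows of genes at or above the median signal. The other replication and G1/S genes described further on had a like share, 32.7% of 55 windows, and of the 25 windows of mitotic genes 1 held a match. The median GC content was 58.0% in member windows and 61.0% in windows of genes at or above the median signal. Of the 4 words, TTTCCCGC and TTTCGCGC were each in 7 member windows, TTTGGCGC in 6 and TTTGCCGC in none. The shorter word CCAAT, on both strands, was in 63.6% of member windows, in 72.0% of mitotic, 41.8% of other replication and 37.4% of all windows. A match describes letters and is not a bound site.

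The 30 bases round the first match are given on the gene's strand, 5′ to 3′, with the 8 matching bases in capitals. They lie at chrX:93632275-93632304 (minus strand) for Pola1, chr4:108579416-108579445 (plus) for Orc1, chr5:151651200-151651229 (minus) for Rfc3 and chr11:98908002-98908031 (plus) for Cdc6. For Mcm5, Mcm7 and Mcm3 they lie at chr8:75109345-75109374 (plus), chr5:138172030-138172059 (minus) and chr1:20820275-20820304 (minus). The first 4 genes are in falling order of their array ratio, and the MCM genes follow.
Pola1: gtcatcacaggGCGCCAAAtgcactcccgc
Orc1: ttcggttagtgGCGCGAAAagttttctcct
Rfc3: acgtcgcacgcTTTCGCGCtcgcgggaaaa
Cdc6: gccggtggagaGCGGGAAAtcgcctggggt
Mcm5: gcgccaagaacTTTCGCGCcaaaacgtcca
Mcm7: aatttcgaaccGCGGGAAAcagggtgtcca
Mcm3: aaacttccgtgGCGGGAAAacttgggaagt

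The Mcm6 window held 3 matches, more than any other member window, of which the first pair overlap. The 250 bases before its start (chr1:128359706-128359955, minus strand) are shown with the E2F-type matches and the 2 CCAAT matches in capitals.
Mcm6: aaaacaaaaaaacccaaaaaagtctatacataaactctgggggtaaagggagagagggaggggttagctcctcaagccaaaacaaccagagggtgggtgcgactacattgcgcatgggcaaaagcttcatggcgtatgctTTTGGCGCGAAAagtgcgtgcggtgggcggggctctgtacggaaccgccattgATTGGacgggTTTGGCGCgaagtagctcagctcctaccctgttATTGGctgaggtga

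Members with and without a match had overlapping ratios on these arrays. The 15 members with an E2F-type match had a median log2 ratio of 0.10, from -0.08 for Pold1 to 0.80 for Pola1, and 1 of them, Pola1, was at least 1.5-fold higher. The 20 measured members whose windows held none had a median of 0.21, from -0.13 for Mcm2 to 0.63 for Orc6, and 2 of them, Orc2 and Orc6, passed 1.5-fold. Mcm6, with 3 matches, was at 0.04. Neither group holds the 7 members without a promoter window, which are Gins1, Gmnn, Ccne2, Gins2, Mcm4, Pole and Rfc2. Of these, Gins1 (0.88) and Gmnn (0.72) were at least 1.5-fold higher.

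**Figure D2:**
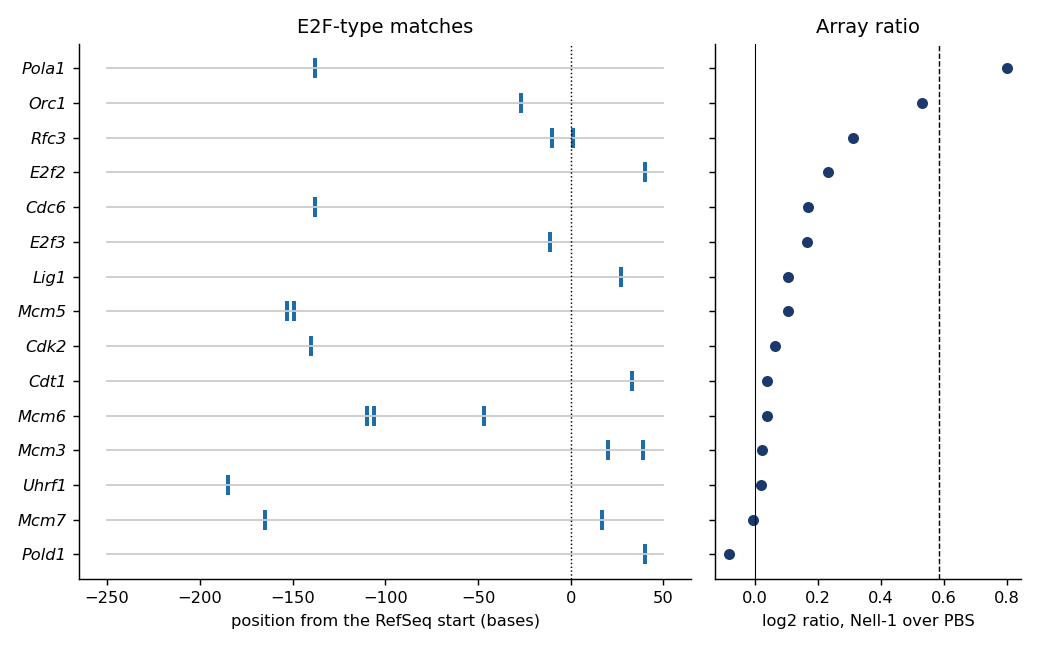
Left, positions of E2F-type matches (blue ticks) in bases from the RefSeq start in the windows of the 15 members that hold one. Right, the log2 ratio of CHX+Nell-1 over CHX+PBS of the same genes, with 1.5-fold dashed. Of 21 matches 13 lie before the start, and the genes with several matches (Mcm3, Mcm5, Mcm6, Mcm7 and Rfc3) lie between -0.01 and 0.31.

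Among the genes that mark origins, the measured subunits Orc1, Orc2 and Orc6 of the origin recognition complex read higher on the Nell-1 array. Orc2 read 429 on the PBS array and 650 on the Nell-1 array, 1.52-fold higher, and its other probe sets gave 402 and 612, and 101 and 174. All 3 Orc2 probe sets were therefore higher on the Nell-1 array, by log2 ratios of 0.60, 0.61 and 0.79. Orc6, another subunit, read by 1 probe set, went from 1142 to 1770, 1.55-fold higher. Orc1, the subunit that carries the ATPase needed for loading, went from 199 to 288, 1.45-fold higher. A second Orc1 probe set gave 180 and 168, so the Orc1 probe sets disagreed. With 17.9 (the 25th percentile of mean signal) added to both signals, Orc2 was just short of the limit at a log2 ratio of 0.58, and with the arrays centred on their median ratio Orc1 passed it at 0.59.

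The 3 other subunits, Orc3, Orc4 and Orc5, were not members and had smaller ratios on their brightest probe sets. Orc5 was at 1919 and 2358, Orc4 at 655 and 816, and Orc3 at 468 and 510. All 6 subunits of the complex thus lay above 0, with a median log2 ratio of 0.42 and 2 past 1.5-fold. The further probe sets of Orc3 were at 0.11 and -0.89. Those of Orc4 were at 1.12, 0.41 and 1.57, the last from signals below the median.

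The loading factors differed little, and their inhibitor more. Cdt1, which brings the Mcm ring to origins, measured 8043 and 8268, and Cdc6, its ATPase partner in loading, 659 and 741. Gmnn encodes geminin, the protein that binds Cdt1 and prevents a second round of loading. Its 1 probe set read 1514 on the PBS array and 2492 on the Nell-1 array, 1.65-fold higher. The robust SD of the log2 ratio among probe sets of like signal was 0.21, and the Gmnn ratio was 0.72. That SD, taken from the median absolute deviation in 10 bins of signal, mixes measurement noise with real differences.

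The Mcm2 to Mcm7 ring, the core of the helicase, was nearly level between the arrays. The highest ratio was that of Mcm4, at 3864 and 4501, and the lowest that of Mcm2, at 4127 and 3774. Mcm3 (4937 and 5018), Mcm5 (6893 and 7411), Mcm6 (5592 and 5740) and Mcm7 (10017 and 9975) lay between them. The median log2 ratio of the 6 genes was 0.03. Their 15 bright probe sets, those with a mean signal at or above the 75th percentile of 431.6, ran from -0.13 to 0.22, and none passed 1.5-fold. A further 4 probe sets of Mcm3, Mcm5 and Mcm6 were dimmer, with signals from 15.7 to 229, and gave ratios from 0.37 to 1.30, 3 of them past 1.5-fold. For these genes the size of the ratio therefore depended on which probe set was read.

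The proteins that turn the ring into a working helicase were split. Gins1, a subunit of the GINS complex, had the largest ratio of all members, with 377 on the PBS array and 695 on the Nell-1 array, 1.84-fold higher. A dim second probe set (under the median signal) went the other way, from 43.3 to 27.2, and the mean log2 ratio over the 2 probe sets was 0.11. Gins2, another subunit of the same complex, was at 1515 and 1869, and its second probe set at 1264 and 1268. Cdc45, which bridges GINS and the ring, measured 487 and 562, and Mcm10, which helps to activate the helicase, 476 and 513. Over all 16 genes of origin licensing and the helicase the median log2 ratio was 0.19, with 4 at least 1.5-fold higher, none lower and 12 neither.

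Of 14 genes that act at the fork, Pola1 alone passed 1.5-fold. It encodes the catalytic subunit of polymerase alpha, which extends the RNA primers made by primase, and its signal was 250 on the PBS array and 436 on the Nell-1 array, 1.74-fold higher. The only other Pola1 probe set was near the background, at 8.47 and 23.3. Prim1, the primase subunit that makes those primers, was 1.27-fold higher at 2768 and 3506, and 1.15-fold higher on its second probe set. Both members of the priming step read higher on the Nell-1 array. Pola2 and Prim2, which belong to the same step but were not members, were nearer level. Pola2 measured 799 and 840, and Prim2 1376 and 1495, with a second Prim2 probe set at 862 and 825.

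The polymerases that copy most of the genome were closer to level. Pole, the catalytic subunit of the leading-strand polymerase, measured 807 and 930. Pold1, the catalytic subunit of the lagging-strand polymerase, was lower on both of its probe sets, at 1037 and 980, and at 715 and 539. Pold1 and Mcm2 were the 2 members whose probe sets at or above the median signal all lay below 0, among 26 members with at least 2 such probe sets. For 14 of the 26 all lay above 0, and for 10 the signs differed.

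Among the members, the clamp, the subunits of its loader and the single-strand binding proteins had small ratios. Pcna, the sliding clamp that holds polymerases on DNA, was at 13644 and 15379, a log2 ratio of 0.17. Of the clamp loader members, Rfc3 (1472 and 1826) was 1.24-fold higher and held that on its second probe set (1354 and 1748). Rfc2, Rfc4 and Rfc5 lay between -0.04 and 0.09. Rfc1, a loader subunit outside the members, read higher on all 3 of its probe sets. The brightest gave 898 and 1321, a log2 ratio of 0.56, and the others had ratios of 0.54 and 0.39. Rpa1, the large subunit of the complex that coats single-stranded DNA, measured 8091 and 8118. The smaller subunits Rpa2 (1654 and 1903) and Rpa3 (2240 and 2835) were 1.15-fold and 1.27-fold higher. Fen1, the nuclease that trims Okazaki fragments, measured 1544 and 1828, and Lig1, the ligase that joins them, 801 and 861. Over the 14 fork genes the median log2 ratio was 0.19, with 12 above 0.

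Nucleotide supply genes were modestly higher apart from Tyms. The subunits of ribonucleotide reductase, which makes deoxynucleotides, were at 4285 and 5232 for Rrm1 and at 4379 and 5430 for Rrm2. All 3 Rrm2 probe sets were higher with Nell-1, by 1.24-fold to 1.31-fold, whereas the second Rrm1 probe set was at 1155 and 1076. Tk1, the thymidine kinase of the salvage pathway, measured 2304 and 2740. Dut, which removes dUTP from the pool, measured 6355 and 6969 on its brightest probe set and 239 and 138 on a dimmer one, 1.73-fold lower. Tyms, which makes thymidylate, had 1 probe set at or above the median signal, at 197 and 189. The other 3 Tyms probe sets had signals under 50 on both arrays and log2 ratios from -0.16 to -1.91. None of the 5 genes passed 1.5-fold on its brightest probe set, and their median log2 ratio was 0.25.

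The G1/S regulators were all above 0 and all short of 1.5-fold. Ccne2, a cyclin E gene, had the largest ratio, with 698 and 949 and a log2 ratio of 0.44. The other cyclin E gene, Ccne1, measured 1285 and 1571, and 1018 and 1144 on its second probe set. Their kinase partner Cdk2 was at 1731 and 1810, a log2 ratio of 0.06. The activating E2F factors were between 0.16 and 0.23, namely E2f1 (823 and 934), E2f2 (120 and 141) and E2f3 (749 and 840). The second E2f1 probe set went the other way, from 660 to 570. Uhrf1, which reads half-methylated DNA behind the fork, measured 2903 and 2943.

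**Figure D3:**
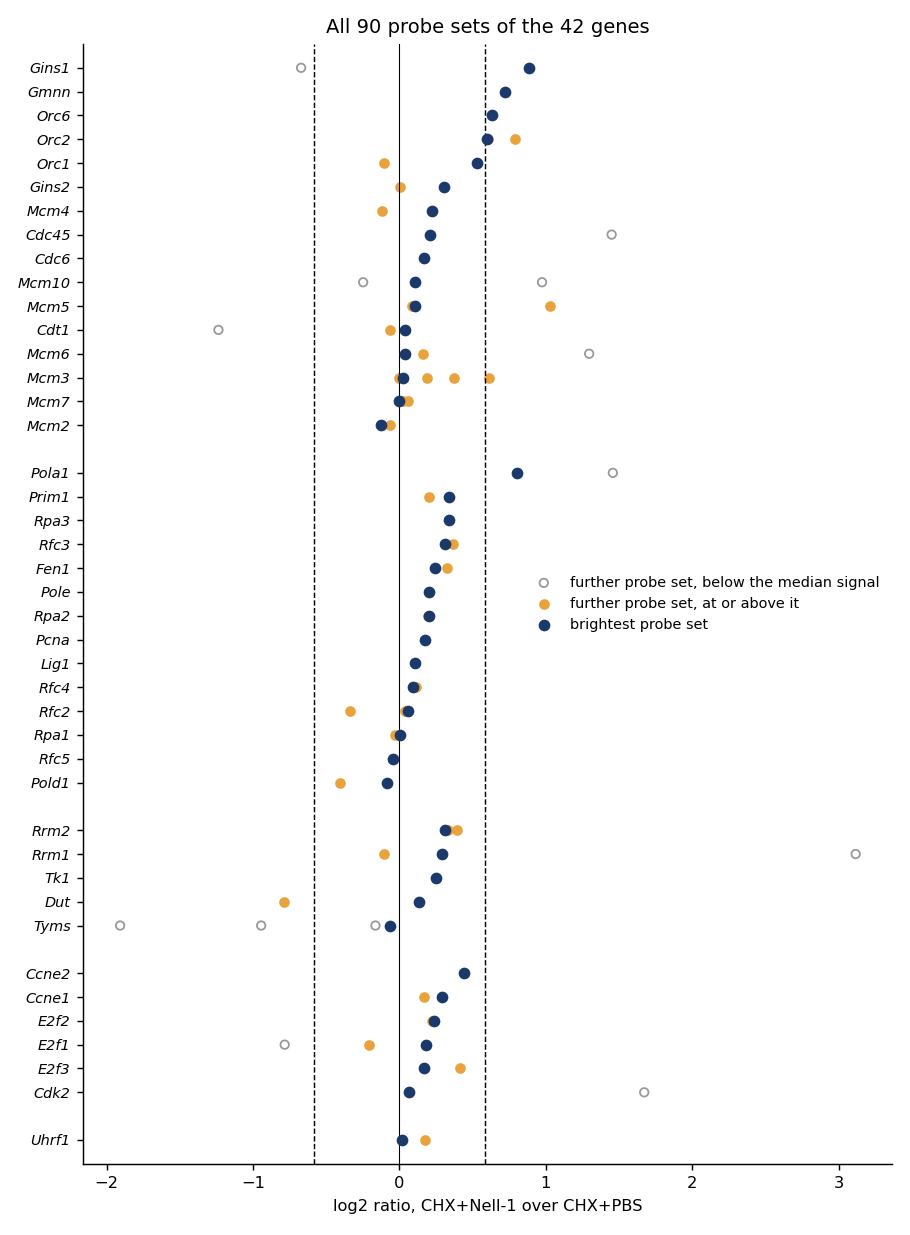
Log2 ratio of CHX+Nell-1 over CHX+PBS for all 90 probe sets of the 42 genes, with the brightest probe set in dark blue, further ones at or above the median signal in orange and dimmer ones as open circles; dashed lines mark 1.5-fold. The 3 Orc2 probe sets lie together at 0.60 to 0.79, the dark blue points run from -0.13 to 0.88, and the open circles spread from -1.91 to 3.12.

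The further probe sets gave a smaller difference than the brightest ones. Of 35 further probe sets at or above the median signal, 24 were above 0, with a median log2 ratio of 0.11, and 4 were at least 1.5-fold higher and 1 lower. Of the 13 below the median signal, 6 were at least 1.5-fold higher and 5 lower, with a median of -0.16. The largest ratio of any member probe set, 3.12, came from Rrm1 signals of 2.28 and 19.8 and shows how ratios spread at the bottom of the scale. Probe sets of 1 gene read the same RNA samples, so they check the measurement and not the treatment.

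The median ratio of the members differed with their signal. In the brightest of the 10 signal bins, above 1708, the 21 members had a median log2 ratio of 0.10, and all 2924 genes of that bin -0.01. In the next bin down, above 652.7, the 13 members were at 0.20 and the 2920 genes at -0.01. The 5 members between 281.6 and 652.6 (Cdc45, Gins1, Mcm10, Orc2 and Pola1) had a median of 0.60, and 3 of them passed 1.5-fold, while 4.29% of the 2427 genes of that bin were at least 1.5-fold higher. The 3 dimmest members, Orc1, Tyms and E2f2, were at 0.53, -0.06 and 0.23. The robust SD rose over the same bins from 0.21 to 0.28 and 0.33. In all, 16 of 42 members exceeded the robust SD at their own signal, and none lay below its negative, where the background was 15.2% and 18.3% of genes at or above the median signal.

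**Figure D4:**
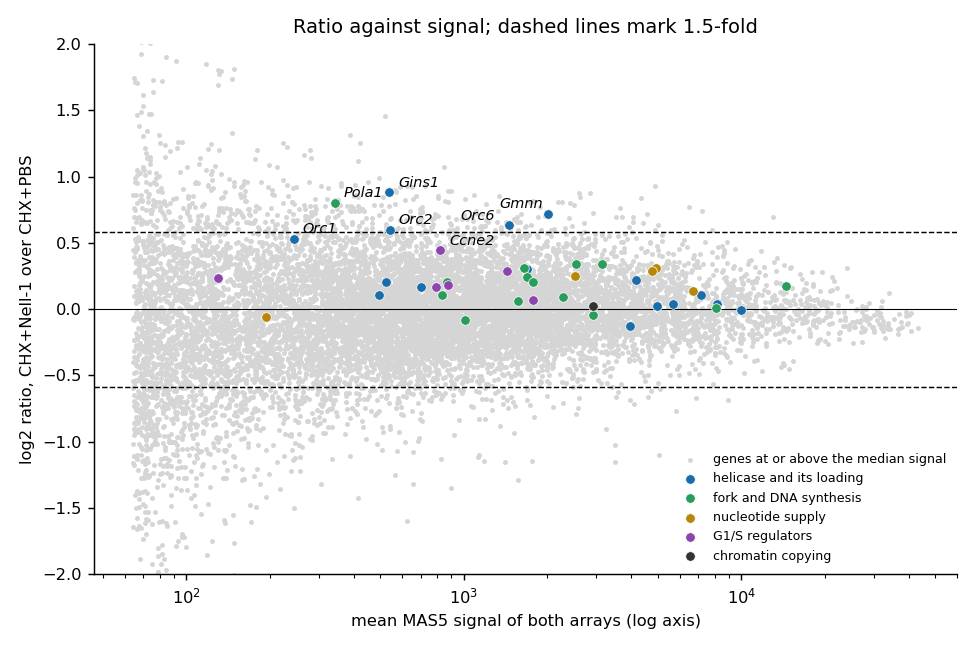
Log2 ratio of CHX+Nell-1 over CHX+PBS against the mean MAS5 signal of both arrays (log axis) for the 11600 genes at or above the median signal (grey) and the 42 members (coloured by role), with 53 grey genes outside the plotted range. Members past the upper dashed line (1.5-fold) are Gins1, Pola1, Gmnn, Orc6 and Orc2, and none is near the lower one.

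Other genes of the same process had a like median, with few calls in either direction. Of 60 listed, 57 were measured, with a median log2 ratio of 0.21 and 49 above 0. At least 1.5-fold higher were 3 (5.26%), lower 2 and neither 52. The background was 4.56% higher and 7.53% lower among genes at or above the median signal, so these counts did not stand out. The 3 were Rbl1, Clspn and Dbf4. Rbl1, a retinoblastoma family repressor of E2F genes, measured 596 and 981 (1.65-fold higher), and a second probe set at or above the median signal gave 230 and 232. Clspn, the checkpoint adaptor claspin, measured 418 and 673, and a second probe set under the median signal went the other way, at 80.8 and 30.2. Dbf4, the activator of the kinase that fires origins, measured 1366 and 2122, 1.55-fold higher, against 32.0 and 10.8 on a dim second probe set. Its kinase partner Cdc7 measured 473 and 677, 1.43-fold higher. Ticrr, which helps Cdc45 to join the ring, was lower, at 303 and 190, as it was on its other probe sets, both below the median signal. The other lower gene was Rb1 (66.0 and 42.0), below the median signal.

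Mitotic spindle and kinetochore genes, which act later in the cycle, had a larger median than the replication genes on their brightest probe sets. Of 27 measured, 26 lay above 0, the median was 0.31, 4 were at least 1.5-fold higher and none lower. The background was 4.56% higher and 7.53% lower among genes at or above the median signal. The 4 were Spc25 (548 and 1151), Nusap1 (725 and 1287), Ndc80 (217 and 357) and Mad2l1 (3149 and 4960), which work at kinetochores or on spindle microtubules. The 12 CDK inhibitors, D cyclins and their kinases had a median of -0.04, with 6 above 0. Among them Cdkn1a, an inhibitor of Cdk2, was higher (408 and 770) and Cdkn1c, another CDK inhibitor, lower (315 and 193). These lists were chosen with earlier results known, and the difference between them was not tested. The mitotic and CDK lists were read from brightest probe sets only. Their further probe sets and the other settings were not examined.

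**Figure D5:**
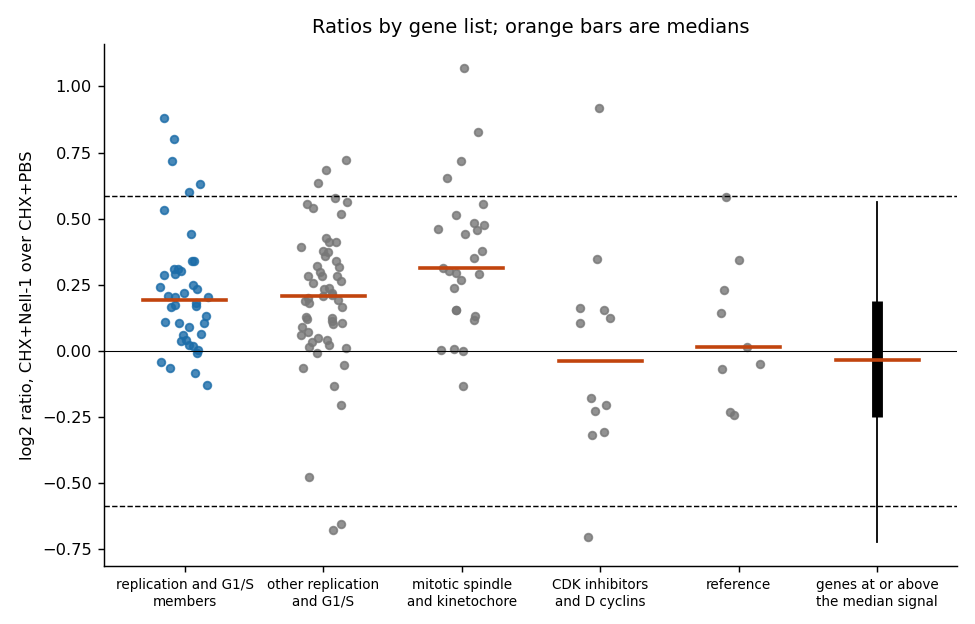
Log2 ratio of CHX+Nell-1 over CHX+PBS for each gene of 5 lists (points, with the median in orange), and at the right the genes at or above the median signal (median, thick bar from the 25th to the 75th percentile, line from the 5th to the 95th). Medians are 0.19 for the members, 0.21 for other replication genes, 0.31 for mitotic genes, -0.04 for CDK inhibitors and D cyclins, 0.02 for reference genes and -0.03 for the genes at the right.

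The spike-in controls and some reference genes moved between the arrays, and whether they bear on the members was not tested. The 9 measured reference genes had a median log2 ratio of 0.02, but ran from -0.24 for Tbp to 0.58 for Tfrc. Of them 3 exceeded the robust SD at their signal and 1 lay below its negative. All 24 probe sets for poly-A spike-in RNAs were lower on the Nell-1 array, with a median of -0.49. All 18 for hybridisation spike-ins were lower there too, with a median of -0.18. The ratio of 3′ to 5′ signal, a sign of RNA integrity, was 1.32 with PBS and 1.28 with Nell-1 for Actb, and 0.848 and 0.858 for Gapdh. In bulk RNA, more cycling cells and more transcript per cell cannot be told apart. Of 11 cartilage markers, 7 lay at or above the median signal, a share like that of all genes (11600 of 18193). Among the 7 were Sox9 (3375 and 2577) and Col2a1 (909 and 1206). Comp (28.5 and 6.35), Matn1 (45.7 and 24.7), Matn3 (12.6 and 13.5) and Hapln1 (43.8 and 13.9) lay below the median signal. Markers of other cell types at or above it were 3 of 7 haematopoietic, 0 of 6 endothelial, 2 of 6 epithelial, 2 of 6 skeletal muscle and 3 of 5 adipocyte genes. Their summed signals were 582 and 544, 227 and 112, 709 and 590, 549 and 309, and 1026 and 1087 on the PBS and Nell-1 arrays.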

How the data were processed

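The deposited values are intensities, linear MAS5 signals per probe set from Affymetrix Expression Console, per the submitters' processing notes, which name no version. The 2% trimmed mean was 500.0 on both deposited arrays. Of 45101 probe sets, 64 controls were kept apart, and of the other 45037 34945 had 1 symbol in the platform annotation, 932 had several and 9160 had none. Of the 34945, the gene ID of 34741 matched a RefSeq table of GRCm38.p6, used for symbols. Probe sets with several symbols or none named no gene, which left 18193 genes. Log2 ratios of the deposited signals carry no added constant unless stated. MAS5 subtracts mismatch signal, so ratios of dim probe sets are unstable. The number of arrays limits the precision.

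Members and lists were chosen with earlier results of these data known. All members may be named, and of other lists the genes past 1.5-fold and up to 4 with the largest ratios at or above the median signal. Rb1, Cdc7, Rfc1, Pola2, Prim2 and the remaining Orc genes were added after their values were seen. Alternatives were 4 rescalings, an added or floor value, 2 signal filters, 3 other choices of probe set, and thresholds of 1.2-fold and 2-fold. The code was tested on simulated arrays. Python 3.11.15, pandas 2.3.3 and statsmodels 0.14.6 were used.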

Additional observations from a re-analysis of the deposited data

How the results depend on the processing

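The member median stayed between 0.062 and 0.25 under the alternatives listed, and the medians of both lists kept their sign, while single genes did not: on their second probe sets Gins1 was at -0.67 and Orc1 at -0.10. It was lowest when each of 32 genes was read from its second brightest probe set, at 0.062, with 19 above 0 and 2 at least 1.5-fold lower (Dut and Gins1). Of all genes read that way, 46.9% lay above 0 and 19.9% were at least 1.5-fold lower. The count at least 1.5-fold higher was 5 as reported and 4 to 7 under the rescalings, constants, filters and probe set choices. The share of all genes so called was 13.1% as reported and differed with the setting. It was 16.1% on second probe sets (4 of 32 members) and 14.4% by the mean over probe sets (7 of 42 members). With the 75th percentile filter it was 2.11% (4 of 38 members). The genes differed with the probe set. The 4 on second probe sets held 2 of the original 5 (Orc2 and Pola1) with Cdc45 and Cdk2. Of these, only Orc2 was read at or above the median signal. The 7 by the mean over probe sets held 4 of the original 5, without Gins1. Cdc45, Cdk2 and Rrm1 were added there through dim probe sets. A 1.2-fold threshold gave 14 and a 2-fold threshold 0. With the mean over probe sets 1 member was at least 1.5-fold lower (Tyms), and with unshared probe sets 1 (Dut). The share of all genes at least 1.5-fold lower was 21.0% and 20.3% in these settings. The median of the other replication genes was 0.21 and became 0.060 as a mean over probe sets. The rescalings moved the median of all genes by at most 0.06. No replicate could be left out, since neither group has more than 1 array. No paired analysis was possible because the comparison rests on a lone array in each group.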
